A study of Sus scrofa with 80 samples.

Results

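The genes described here handle fatty acids in the Göttingen minipig, a small breed of Sus scrofa: they activate, oxidize, build, elongate, desaturate, bind and store them. They were chosen by name, as every gene on the array whose symbol begins with the letters of 1 of the acyl-CoA dehydrogenase, synthetase, oxidase and thioesterase, carnitine palmitoyltransferase, elongase, desaturase, fatty acid binding, perilipin or acyltransferase families, or is ACACA, ACACB, FASN, SCD, LPL or LIPE. The rule gave 64 of 23722 genes. Of these, 4 are GPATCH1 to GPATCH4, G-patch proteins that only share letters with the acyltransferases, so that 60 genes of fatty acid metabolism remained. A further 20 genes of the same families are named on the array only by a transcript identifier and were matched through RefSeq. They lie outside the rule and are marked below as measured by accession; 12 of them bring a symbol that the rule did not reach, among them FASN, CPT1A and ACADM, and 8 measure a member's symbol a second time.

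Total RNA was hybridized to 80 one-color Agilent arrays. Liver, kidney, spleen, bone marrow, cerebellum, hypothalamus and cortex each gave 2 samples, 1 per sex, at the ages of 1 week, 4 weeks, 2 months and 4 months, and 1 sample of a male at 2 years. Testis came from 1 male at each age and ovary from 1 female at each age up to 4 months. All animals were untreated and supplied by 1 breeder, but the 2-year-old male was raised at another site from 74 days after birth, with other food and another pentobarbital product at euthanasia, and its arrays lie on 2 slides of their own among 11. It therefore entered no main test and its values are given singly. The labels do not say which tissues came from the same animal. The 2 samples of a tissue and age differ in sex, and p-values rest on the spread between such samples. In 1 comparison of age, described below, the spread also holds changes between the ages within a group.

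Fatty acids enter oxidation after coupling to coenzyme A, long chains cross into mitochondria through the carnitine palmitoyltransferases, and very long or branched chains begin their breakdown in peroxisomes. Synthesis runs from acetyl-CoA through acetyl-CoA carboxylase and fatty acid synthase to elongases and desaturases, and diacylglycerol acyltransferases store the product as triacylglycerol in droplets coated by perilipins. Liver does all of this, kidney tubules live largely on oxidation, adipocytes store, and brain builds membrane and myelin lipid.

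Values are log2 intensities after background correction and quantile normalization, averaged over the probes of a gene, and differences are on the same scale, so that 1 unit is a 2-fold change. A gene's levels are compared between samples, never with those of another gene, because probes differ in brightness. Between 57.7% and 74.7% of the genes were well above the local background on an array. Of the 64 genes, 30 were well above background in all 72 tissue samples, 30 in some and 4 (HADHA, FABP6, LPL and PLIN2) in none. For LPL and PLIN2 a further probe set, named by accession, gave signal: that of LPL was well above background in 46 of 72 samples and that of PLIN2 in 70 of 72. The blank under the symbols LPL and PLIN2 therefore describes those probes. HADHA encodes the alpha subunit of the mitochondrial trifunctional protein, and HADHB, the beta subunit, was well above background in every sample. The 2 probes of HADH, the short-chain hydroxyacyl-CoA dehydrogenase, averaged 3.74 and 11.41 and correlated at 0.79. Those of DGAT2L6 did not vary together (r = 0.0045 over 73 samples, renal pelvis included), so that its values rest on probes that disagree. Other genes had such limits too. The probes of PLIN1 averaged 2.61 and 6.55 but varied together (r = 0.91), and the lowest correlation among the 3 probes of ACSM3 was 0.36. The probes of ACAD8 correlated at 0.57 and those of ACOX3 at 0.62.

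Tissue was compared first. Each tissue, averaged over its 4 ages, was set against the mean of the other 6 with limma over 56 samples, and a gene was called at an adjusted p under 0.05 and at least a 2-fold difference. Tissue identity was checked on marker genes: 6 of 8 hepatocyte markers were called higher in liver, 7 of 7 proximal tubule markers in kidney, 7 of 7 macrophage markers in spleen, 7 of 8 erythroid markers in bone marrow, and 5 of 7 astrocyte markers in each of the 3 brain regions. In liver, 38 of 64 genes were called, 26 higher and 12 lower, where 21.4% of all genes were called (9.83% higher and 11.5% lower). Kidney had 17 genes higher and 12 lower, 29 in all, against 17.9% of all genes (8.89% and 8.96%). Spleen had 5 higher and 21 lower against 18.9% (8.81% and 10.1%), and bone marrow 6 higher and 16 lower against 22.5% (10.4% and 12%). In cerebellum 8 genes were higher and 14 lower, where the array gave 19.8% (9.75% and 10.1%). Hypothalamus and cortex each had 9 higher and 15 lower, against 17.7% (9.82% and 7.85%) and 20% (10.6% and 9.42%). The split was toward higher levels in liver and kidney and toward lower levels in the other 5 tissues.

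**Figure D1:**
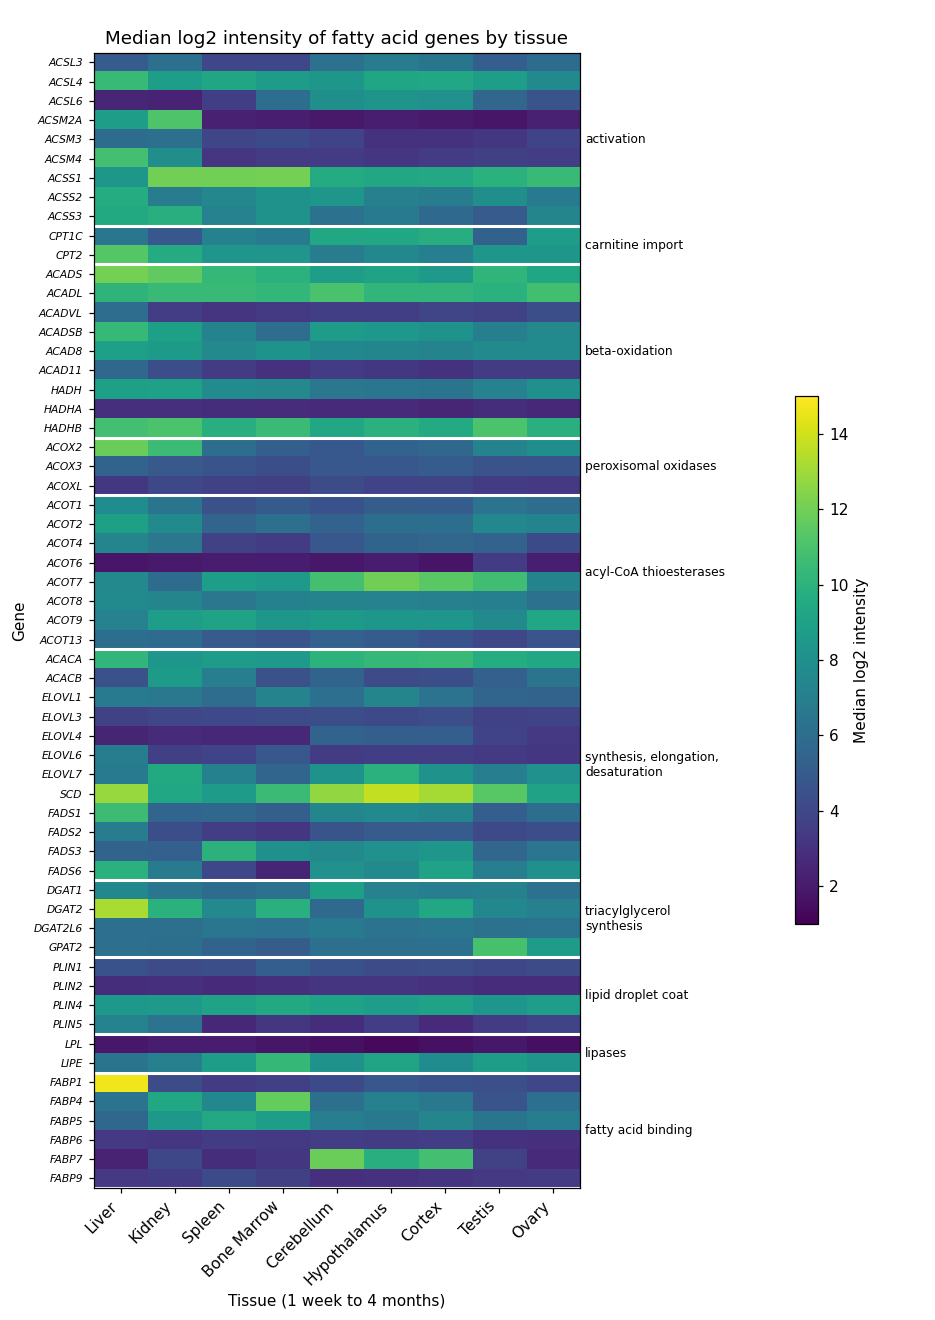
Median log2 intensity (color scale, 1 to 15) of the fatty acid genes, all but 1 of the 60, in 9 tissues, over 8 samples per tissue from 1 week to 4 months (4 in testis and ovary), with rows grouped by role. Colors compare tissues within a row: FABP1 stands out in liver, ACSM2A in kidney and liver, FABP7 in the 3 brain regions, FABP4 in bone marrow and GPAT2 in testis.

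Among the activating enzymes, the medium-chain acyl-CoA synthetases ACSM2A and ACSM4 separated liver and kidney from all other tissues. ACSM2A lay between 9.76 and 11.49 in kidney (median 11.14, n = 8) and between 8.44 and 9.45 in liver (median 8.87), and was not well above background in any sample of the other 7 tissues, testis and ovary included. Its difference in kidney was 7.70 ± 0.10 (SE; limma, adjusted p = 6.1e-35), measured against background signal in 5 of the other 6 tissues. ACSM4 ran from 10.64 to 11.11 in liver and from 5.13 to 9.29 in kidney, and its liver difference was 6.74 ± 0.09. The probe set of ACSM4 by accession gave 12.97 to 13.83 in liver and 7.09 to 12.37 in kidney. Both probe sets of ACSM4 showed the same order of tissues, with a wide range in kidney that followed age, described below. The acetate-activating pair divided the tissues in opposite ways. ACSS1, the mitochondrial acetyl-CoA synthetase, had medians of 12.00 in kidney, 12.00 in spleen and 12.10 in bone marrow and 8.39 in liver (liver difference -2.13 ± 0.09), whereas ACSS2, its cytosolic counterpart, had a median of 9.66 in liver and of 6.95 in kidney (liver difference 2.18 ± 0.11). ACSL6, a long-chain synthetase known from brain and red cell precursors, had medians between 7.96 and 8.27 in the 3 brain regions and 6.05 in bone marrow, and was not well above background in any liver or kidney sample. The mean of the other 6 tissues exceeded kidney in ACSL6 by at least 8.65-fold and liver by at least 6.50-fold. Each mean includes the other of these 2 organs, also at background. Such bounds take the dim group, array by array, at the higher of its own signal and the lowest signal measured well above background there. By accession, ACSL1 and ACSL5 were higher in liver by 3.75 ± 0.17 and 3.98 ± 0.09, and ACSL5 was also higher in spleen (2.37 ± 0.09) and bone marrow (1.70 ± 0.09).

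Carnitine-dependent import showed its brain form apart from the others. CPT1C, the brain-type carnitine palmitoyltransferase, ran from 9.04 to 9.80 over the 24 brain samples (medians 9.38 in cerebellum, 9.37 in hypothalamus and 9.72 in cortex), with medians of 6.49 in liver and 4.80 in kidney. No sample of liver, kidney, spleen or bone marrow reached the brain values, but ovary did, with a median of 8.82 and a highest value of 9.65. CPT2, on the inner membrane, was highest in liver (10.97 to 11.83, difference 3.44). By accession, CPT1A, the liver form, had medians of 11.95 in liver and 12.29 in kidney against 9.35 in cerebellum, while CPT1B, the muscle form, was lower in liver (-1.39 ± 0.08).

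Most of the beta-oxidation genes and the peroxisomal oxidase ACOX2 were higher in liver. Of the 9 beta-oxidation genes, 6 were called higher there (9.83% of all genes) and none lower (11.5%), and 2 were called higher in kidney (8.89%). ACADS, the short-chain acyl-CoA dehydrogenase, ran from 11.84 to 12.45 in liver, 11.12 to 11.77 in kidney and 8.31 to 9.35 over the 3 brain regions, with no overlap between these 3 sets. ACADM, the medium-chain enzyme, measured by accession, was higher in liver by 2.85 ± 0.09 and in kidney by 2.90 ± 0.09. Not all followed this order: ACADL, the long-chain enzyme, was called in no tissue, and its 7 tissue medians lay between 10.08 and 10.96. ACADVL, the very-long-chain enzyme, was higher in liver (2.46), at 5.65 to 6.37. In peroxisomes ACOX2, the branched-chain and bile acid oxidase, ran from 11.40 to 12.49 in liver and from 10.08 to 11.17 in kidney, and no sample of the other 7 tissues exceeded 8.27. Its liver difference was 5.63 ± 0.11 and its kidney difference 4.15 ± 0.11. The other peroxisomal oxidases did not share this: ACOX3 had medians of 5.48 in liver and 5.06 in cortex. ACOXL was not well above background in any of the 8 liver samples up to 4 months. A further 14 mitochondrial oxidation genes, such as SLC25A20 and DECR1, lie outside the name rule. Of these, 10 were called higher in liver, 8 in kidney and 0 in the brain regions. In the brain regions 7 (cerebellum, 10.1% of all genes), 2 (hypothalamus, 7.85%) and 9 (cortex, 9.42%) were called lower.

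Thioesterases, which release fatty acids from coenzyme A, split between liver and brain. ACOT1, ACOT2 and ACOT4 were called higher in liver by 2.74, 2.85 and 2.39. ACOT7, the brain acyl-CoA hydrolase, ran from 10.83 to 12.40 over the 24 brain samples, from 6.20 to 8.10 in liver and from 4.88 to 7.67 in kidney. It was higher in hypothalamus by 3.03 ± 0.08 and lower in kidney by 3.73, with testis reaching 12.03. ACOT12, by accession, was well above background in 8 of 8 liver samples up to 4 months and in no other tissue, at least 22.6-fold higher in liver.

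The synthesis genes SCD and FASN were high in liver and brain. SCD, the stearoyl-CoA desaturase, had medians of 12.84 in liver and between 12.74 and 13.73 in the 3 brain regions, against 9.32 in kidney and 8.76 in spleen; hypothalamus differed from the rest by 2.34. FASN, by accession, had medians of 12.94 in liver and between 12.55 and 12.90 in the brain regions, against 10.12 in kidney and 10.62 in spleen. Liver and brain overlapped in both genes. The polyunsaturated desaturases FADS1 and FADS2 were higher in liver (3.89 and 2.22), FADS6 was higher in liver (3.53) and cortex (2.66 ± 0.12), and FADS3 was lower in liver by 2.59 and higher in spleen by 2.53 ± 0.09. FADS6 was not well above background in any bone marrow sample, where it was at least 24.4-fold lower than the mean of the other 6 tissues. ELOVL4, which makes very-long-chain fatty acids in brain and retina, was well above background in all 24 brain samples and in no liver, kidney, spleen or bone marrow sample. ELOVL6, which extends palmitate, was highest in liver (6.51 to 7.66, difference 3.12). ACACA, the cytosolic acetyl-CoA carboxylase, was called lower in kidney (-1.39) and spleen (-1.06). ACACB, the mitochondrial form that restrains carnitine import, was higher in kidney (7.98 to 9.98, difference 3.69 ± 0.18), and only 4 of 8 liver samples were well above background.

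Among storage genes, DGAT2 was higher in liver and the lipases LIPE and LPL in bone marrow. DGAT2, which completes triacylglycerol synthesis, ran from 12.68 to 13.65 in liver and from 5.52 to 6.25 in cerebellum, with differences of 4.54 ± 0.25 and -4.10 ± 0.25. In bone marrow DGAT2 ran from 7.49 to 13.83, overlapping with liver, and stood at 14.85 at 2 years. DGAT1, the other enzyme of that step, was higher in cerebellum, where it ran from 8.48 to 9.30 (difference 2.22 ± 0.09), and no sample of the other 6 tissues of the test reached its lowest value. PLIN5, the droplet coat of oxidative tissues, was well above background in all 8 liver and all 8 kidney samples, and in 3 of the 40 samples of the other 5 tissues in the test (2 of bone marrow and 1 of hypothalamus). LIPE, the hormone-sensitive lipase, was higher in bone marrow (2.82 ± 0.15), as was LPL by accession (4.67 ± 0.21). Beside these, 5 of 10 adipocyte and 5 of 8 muscle markers were called higher in bone marrow, and their part in the values was not tested. LPL by accession was not well above background in any liver or cerebellum sample.

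The binding proteins differed widely between tissues. FABP1, the liver form, lay between 14.42 and 15.22 in liver, and the highest value in any other sample was 6.31, in ovary. Its difference was 10.61 ± 0.10 (adjusted p = 6.96e-40). FABP7, the glial form, ran from 11.41 to 12.54 in cerebellum, 10.09 to 11.29 in cortex and 8.99 to 10.32 in hypothalamus, with differences of 6.38 ± 0.13, 5.08 ± 0.13 and 3.95 ± 0.13. It was not well above background in any liver, spleen or bone marrow sample. There it was at least 13.1-fold, 15.6-fold and 12.4-fold lower than the mean of the other 6 tissues. Each such mean includes the other 2 of these organs, also at background. The probes of FABP7 by accession gave 11.44 to 12.44 in cerebellum and 9.88 to 11.40 in cortex, the same order. FABP4, the adipocyte form, ran from 10.26 to 14.80 in bone marrow (difference 4.96 ± 0.19) and overlapped with kidney and spleen. The probe names of FABP4 and FABP7 class them as cross-hybridizing; their separate probe sets by accession were called in the same direction in liver, bone marrow, cerebellum and cortex. FABP5, the epidermal form, was higher in spleen by 2.11 ± 0.13 and lower in liver by 2.40. FABP3, the heart form, measured by accession, was higher in kidney by 3.82 ± 0.15, where all 8 samples lay between 11.04 and 11.84, above every other sample. The 4 G-patch genes were called in no tissue except GPATCH3, which was lower in hypothalamus (-1.08) and cortex (-1.24).

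Age was compared in 2 ways. The age difference set the 4 samples at 2 and 4 months against the 4 at 1 and 4 weeks within a tissue. Its spread therefore holds changes between the 2 ages of a group as well as differences between the 2 samples of an age. The first step set the 2 samples at 4 weeks against the 2 at 1 week with the spread of all 28 tissue and age groups. Both used an adjusted p under 0.05 in limma. In the age difference, 3 of 64 genes were called in liver (1.81% of all genes), 7 in kidney (8.46%), 1 in spleen (3.11%), 1 in bone marrow (0.733%), 5 in cerebellum (2.29%), 1 in cortex (1.77%) and 0 in hypothalamus (0%; 10 genes had an unadjusted p under 0.05). In the first step, 4 were called in liver (4.34%), 5 in kidney (2.18%), 21 in spleen (32.6%) and 9 in bone marrow (10.8%). In cerebellum, hypothalamus and cortex 0 were called (0.712%, 0.232% and 0.0927%), with 6, 3 and 2 genes at an unadjusted p under 0.05. The share of called genes in the spleen step, 32.8%, was close to that of the array.

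**Figure D2:**
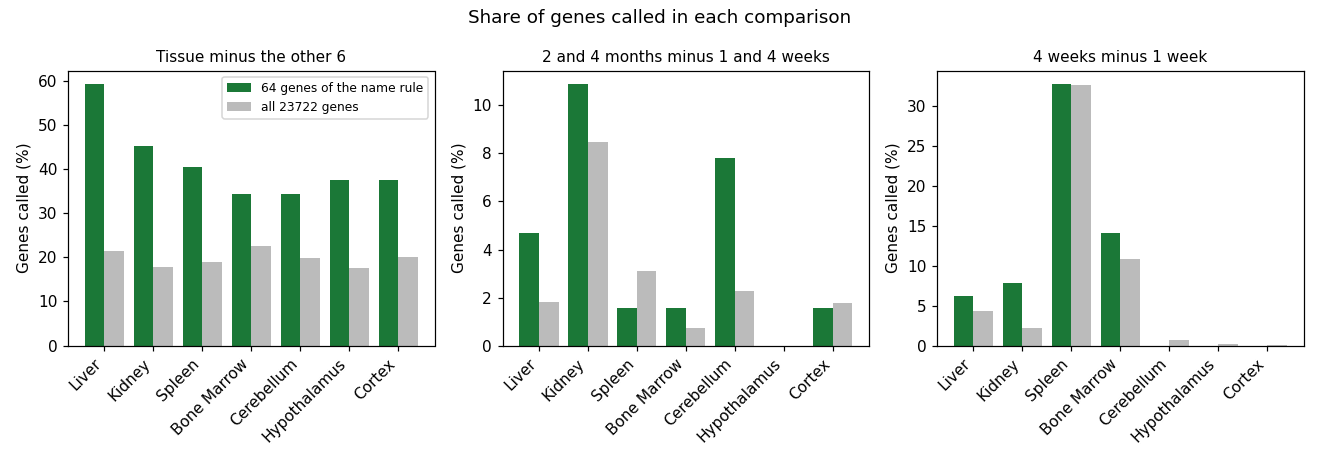
Share of genes called (percent, vertical axis from 0, with its own scale in each panel) among the 64 genes of the name rule (green) and all 23722 genes (grey), by tissue, for the tissue difference, the age difference and the first step. In the tissue panel liver reaches 59.4% against 21.4%; in the age panels most bars stand for few genes, and the spleen step is at 32.8% against 32.6%.

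In liver, ACSS2 and FASN, genes of acetyl-CoA supply and fatty acid synthesis, rose after 4 weeks. ACSS2, which supplies cytosolic acetyl-CoA, measured 9.15 (female) and 8.84 (male) at 1 week, 8.29 and 8.55 at 4 weeks, 11.05 and 10.76 at 2 months and 10.18 and 10.90 at 4 months. All 4 older samples lay above all 4 younger ones, and ACSS2 rose by 2.01 ± 0.24, a 4.03-fold change (limma, adjusted p = 0.00919). This call held under all 11 alternative settings and without each of the 8 samples in turn, that of FASN under all 11 and without 5 of the 8. FASN, by accession, ran from 11.62 to 12.61 in the younger and from 13.27 to 15.24 in the older samples, without overlap, and rose by 2.41 ± 0.38 (adjusted p = 0.023). Other synthesis genes did not pass the threshold: SCD differed by 1.68 ± 0.41 (adjusted p = 0.0723), ACACA by 1.22 ± 0.28 (0.0627), ELOVL6 by 0.27 (0.561), FADS1 by -0.91 (0.409) and FADS2 by -0.66 (0.566). ACACB (0.0662) was not well above background in any younger liver and measured 4.63 to 7.46 in the older ones. Among the regulators of this pathway SREBF1, by accession, differed by 0.74 ± 0.17 (0.0586). In the 2-year-old male ACSS2 stood at 10.90 and FASN at 13.57, both within the range of the older samples.

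**Figure D3:**
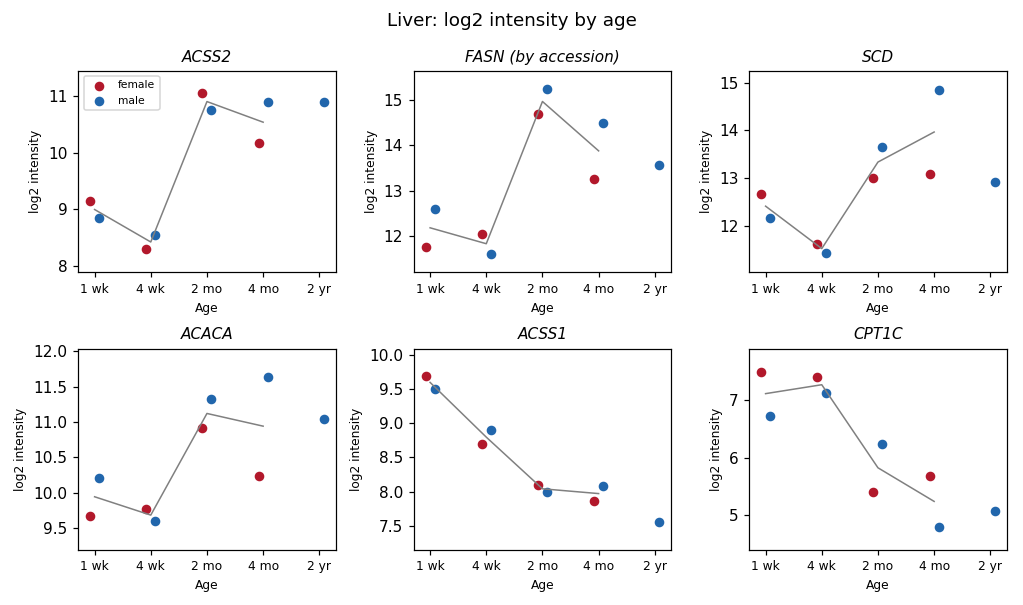
Log2 intensity (vertical axes, separate scales) of 6 genes in liver at 5 ages (evenly spaced, not to time). Points are single animals, red female and blue male, and the grey line joins the means of the 2 samples up to 4 months. ACSS2 and FASN lie higher at 2 and 4 months than at 1 and 4 weeks, and ACSS1 and CPT1C lie lower.

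ACSS1 and CPT1C fell in liver over the same ages. ACSS1 measured 9.69 and 9.50 at 1 week, 8.69 and 8.90 at 4 weeks, and between 7.86 and 8.09 at 2 and 4 months. It fell by 0.80 on the log2 scale in the first step (adjusted p = 0.047) and by 1.19 in the age difference (adjusted p = 0.0354), and the 2-year value of 7.55 was the lowest of all liver samples. The ACSS1 step was called in 0 of 4 fits without 1 sample, and its age difference in 3 of 8. CPT1C ran from 6.73 to 7.50 in the younger and from 4.80 to 6.24 in the older samples and fell by 1.66. Of 9 beta-oxidation genes, 0 were called in liver in the age difference (1.81% of all genes) and 1 in the first step (4.34%). HADHA, 1 of the 9, was not well above background in any sample. The called gene was ACADSB, the short/branched-chain dehydrogenase of isoleucine breakdown, which rose from 9.21 and 9.81 to 10.37 in both sexes. ACOX3 fell from 5.99 in both sexes to 5.38 and 5.54. Without single samples, the ACADSB step was kept in 2 of 4 fits, at 0.56 to 1.16, that of ACOX3 in 1 of 4, and the age difference of CPT1C in 3 of 8. ACSL6 was also called, but no liver sample was well above background. Beside these first steps, 5 of 8 erythroid and 4 of 6 cycling cell markers fell in liver, and their part in the liver values was not tested. In a piece of tissue, fewer cells of a type and less RNA per cell cannot be told apart.

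In kidney the medium-chain synthetases ACSM4 and ACSM2A rose in the first step, whereas ACSM3 differed by 0.51 (adjusted p = 0.444) and ACSM5 by accession by 0.16 (0.961). ACSM4 measured 5.42 (female) and 5.13 (male) at 1 week, 7.91 and 7.18 at 4 weeks, 7.93 and 8.24 at 2 months and 9.29 and 9.04 at 4 months. Its first step was 2.27 ± 0.22, a 4.83-fold rise (adjusted p = 4.57e-08), and the probe set of ACSM4 by accession gave 2.93 ± 0.28, both called without each of the 4 samples in turn. The age difference of ACSM4 was 2.22 ± 0.59 (adjusted p = 0.0464), kept in 1 of 8 fits that left out a sample. ACSM2A rose from 10.73 and 9.76 to 11.49 and 11.36 (1.19 ± 0.27) and ACAD8, the isobutyryl-CoA dehydrogenase of valine breakdown, from 7.91 and 7.82 to 8.85 and 8.56 (0.84 ± 0.23), calls that were kept without 1 and 0 of the 4 samples in turn. Over this step 2 of 7 proximal tubule markers rose (sum from between 12.81 and 13.26 to between 13.43 and 13.57), while 3 of 6 cycling, 2 of 8 endothelial and 1 of 8 erythroid markers fell, the erythroid sum from between 14.63 and 14.69 to between 11.78 and 11.81. The part of these cells in the rises was not tested. In liver ACSM4 measured 10.75 and 10.86 at 1 week and 10.93 and 10.72 at 4 weeks, with overlapping ages. The step of liver minus that of kidney was -2.25 ± 0.32 for ACSM4 (adjusted p = 4.89e-05). The other genes called in this contrast were ACOT7 (1.93 ± 0.30) and ACSL6, which is below background in both organs, giving 3 of 64 where 1.21% of all genes were called.

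**Figure D4:**
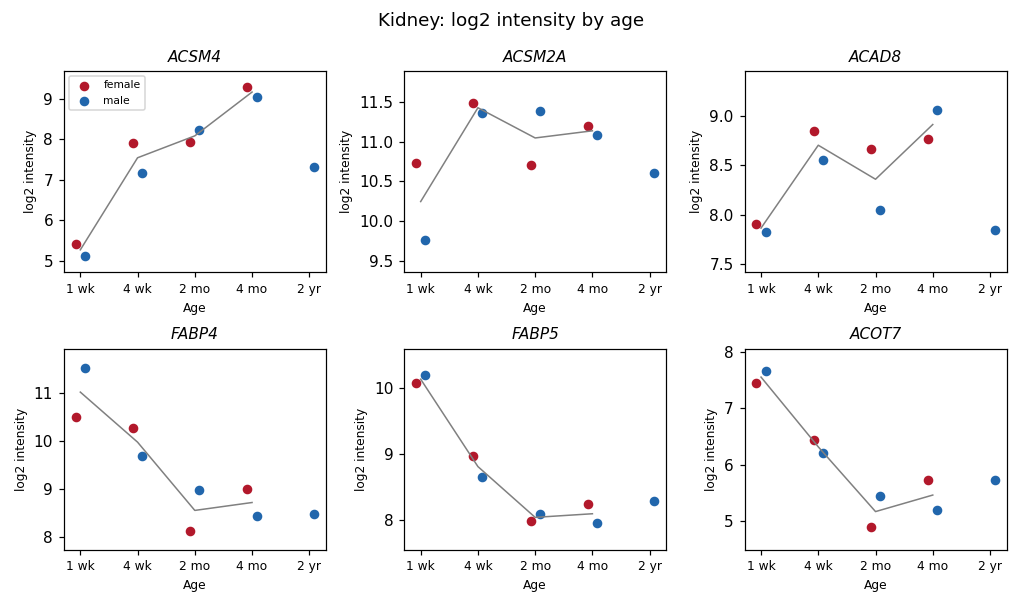
Log2 intensity (vertical axes, separate scales) of 6 genes in kidney at 5 ages (evenly spaced, not to time), red female and blue male, with the grey line through the means up to 4 months. ACSM4 and ACSM2A are higher at 4 weeks than at 1 week, and FABP4, FABP5 and ACOT7 fall between the youngest and the older samples.

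The binding proteins FABP4, FABP5 and FABP7 fell in kidney with age, while FABP3 by accession differed by 0.10 (adjusted p = 0.803) and FABP1 by -0.60 (0.0848). FABP5 measured 10.07 and 10.20 at 1 week, 8.97 and 8.65 at 4 weeks and between 7.95 and 8.24 later, and fell by 1.33 in the first step and by 1.41 in the age difference. FABP4 ran from 9.68 to 11.53 in the younger and from 8.13 to 9.00 in the older kidneys and fell by 1.87 (adjusted p = 0.0175). Its probes by accession fell by 1.19 (adjusted p = 0.0437). Both sets of older samples lay below all younger ones. FABP7 was measured at 4.57 to 5.99 in the younger kidneys and not well above background in any older one, at least 2.98-fold lower. ACOT7 fell from 7.45 and 7.67 at 1 week to 6.43 and 6.20 at 4 weeks, and lay between 4.88 and 5.72 afterwards. CPT1C fell by 0.83 and FADS1 by 1.06, the latter with overlapping groups. Beside these genes, 4 of 6 cycling cell markers fell in kidney, their summed level going from between 10.38 and 10.63 at 1 week to between 7.84 and 8.13 at 4 months. The summed endothelial markers went from between 12.55 and 12.75 to between 11.12 and 11.18. The part of these cells in the kidney values was not tested. Leaving out single kidney samples gave between 1 (without the first 1-week or the second 2-month sample) and 10 called genes (without the first 4-month sample). The falls of FABP4 and FABP7 by symbol stayed called without 6 of 8 samples in turn, and that of FABP4 by accession without 1 of 8. Those of FABP5, ACOT7 and FADS1 stayed called without 3 of 8 and that of CPT1C without 2 of 8. The first step of FABP5 was kept in 0 of 4 fits.

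In spleen, 13 genes rose and 8 fell in the first step, a share close to that of all genes (16.9% higher and 15.7% lower). FABP4 measured 7.87 and 9.54 at 1 week, 11.20 and 10.57 at 4 weeks, and between 6.35 and 7.24 at 2 and 4 months, so that the 4-week samples stood above all others. The step was 2.18 ± 0.51, and the age difference, which averages both young ages, was -3.03 ± 0.63 (adjusted p = 0.0416). The probes of FABP4 by accession were called in the first step (0.82 to 2.13 without single samples) but not in the age difference. DGAT2 followed the same course, with 7.26 and 8.56, then 10.80 and 9.00, then between 7.14 and 7.71, and LPL by accession stepped up by 2.14 ± 0.54. Leaving out 1 of the 4 samples moved these steps, to between 1.35 and 3.02 for FABP4 (called in 3 of 4 fits), 1.09 and 2.89 for DGAT2 (2 of 4) and 1.31 and 2.96 for LPL (2 of 4). FABP5 rose from 8.47 and 8.51 to 10.28 and 10.21. ACSL6 fell in spleen from 6.48 and 6.57 to below background, by at least 10.2-fold, and ACOT8 fell by 0.79. PLIN2 by accession fell by 2.01 ± 0.33. Over the same step 6 of 8 erythroid and 5 of 6 cycling cell markers fell, and 4 of 7 macrophage and 4 of 8 endothelial markers rose. Of 10 adipocyte markers 2 rose and 1 fell, their sum going from between 8.46 and 8.76 to between 8.91 and 9.50, and of 8 measured muscle markers 1 rose, their sum going from between 13.81 and 13.97 to between 15.25 and 15.39. The summed macrophage markers went from between 15.08 and 15.32 to between 16.53 and 16.66, and the summed endothelial markers from between 11.19 and 11.36 to between 12.39 and 12.40. The part of these cells in the spleen values was not tested. Without the 1-week samples of the spleen, a setting chosen after seeing the data, 3 genes were called in the age difference and FABP4 was still called (-4.12), whereas its age difference was kept without only 2 of 8 single samples.

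In bone marrow, PLIN1, LPL and FASN, genes known from adipocytes, rose after 4 weeks, and PLIN1 and LPL stood highest in the oldest animal. PLIN1, the coat of adipocyte droplets, measured 4.66 and 4.55 at 1 week, 4.83 and 4.72 at 4 weeks, 7.28 (female) and 5.53 (male) at 2 months, 7.72 and 7.12 at 4 months, and 11.05 in the 2-year-old male. It rose by 2.22 ± 0.40 (adjusted p = 0.0437), all older samples lying above all younger ones. By accession, LPL rose by 3.19 ± 0.58 (0.0438), to 12.27 at 2 years, and FASN by 2.38 ± 0.41 (0.0368). DGAT2 ran from 7.49 to 9.56 in the younger and from 10.20 to 13.83 in the older samples, and SCD from 9.25 to 10.34 and from 10.76 to 13.25, without overlap, but neither passed the threshold (3.87 ± 0.76, adjusted p = 0.0578, and 2.68 ± 0.50, 0.0508). FABP4 differed by 2.66 ± 0.56 (0.0716) and stood at 15.99 at 2 years. The 2-month female lay above the 2-month male in PLIN1, DGAT2, SCD, FABP4, LIPE, LPL and FASN. Of 10 adipocyte markers 2 rose, CIDEC and THRSP. The summed level of the 10 went from between 9.48 and 10.19 at 1 and 4 weeks to between 11.37 and 12.77 at 4 months. It stood at 14.28 at 2 years. In that 1 sample the summed erythroid markers were at 12.51, against between 16.62 and 17.05 up to 4 months. Summed cycling cell markers were at 8.24, against between 11.76 and 12.64. The part of these cells in the bone marrow values was not tested. The calls of PLIN1, LPL and FASN were lost when the 1-week samples of bone marrow were left out, a setting chosen after seeing the data, with differences of 2.14, 3.56 and 2.70. Each of these calls was kept in 1 of the 8 fits that left out a single sample.

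**Figure D5:**
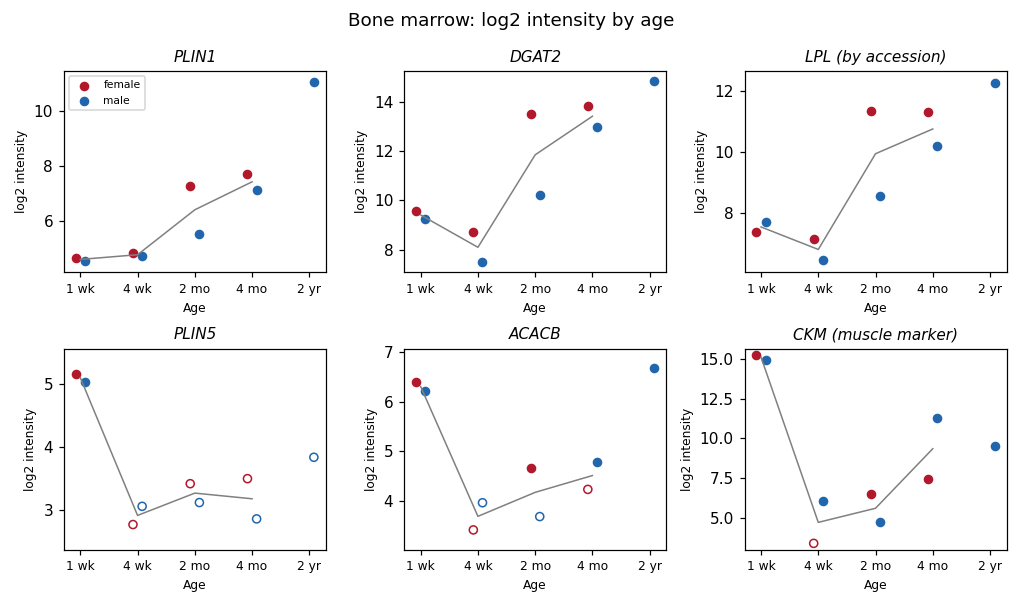
Log2 intensity (vertical axes, separate scales) in bone marrow at 5 ages (evenly spaced, not to time), red female and blue male, open points not well above background, grey line through the means up to 4 months. PLIN1, DGAT2 and LPL lie higher after 4 weeks and highest at 2 years, and PLIN5 and ACACB are high at 1 week together with the muscle marker CKM.

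The first step in bone marrow ran with muscle markers. ACACB measured 6.40 and 6.22 at 1 week and was not well above background at 4 weeks, at least 6.15-fold lower, and PLIN5 (5.17 and 5.04) fell by at least 4.06-fold and ACOX2 (5.55 and 5.29) by at least 2.94-fold. By accession FABP3, the heart and muscle binding protein, fell by 1.87 and CPT1B, the muscle carnitine palmitoyltransferase, by 1.91. In the same samples 6 of 8 skeletal and smooth muscle markers fell, with a median of -4.83 over the list, and CKM, the muscle creatine kinase, went from 15.28 and 14.98 to 3.38, not well above background, and 6.03. The summed muscle markers lay between 15.65 and 15.75 at 1 week, between 10.11 and 10.83 at 4 weeks and 2 months, and between 10.44 and 13.03 at 4 months. The part of muscle tissue in these values was not tested. The falls of ACACB, PLIN5, ACOX2, FABP3 and CPT1B were called without each of the 4 samples in turn. FABP5 fell by 1.46, HADH by 0.63 and ACOT7 by 0.69. ACOT13, a thioesterase whose probes correlate at 0.35, was not well above background at 1 week and measured 4.68 and 6.30 at 4 weeks. CPT1C rose by 0.91 and GPATCH2, not a fatty acid gene, by 0.63. Of 4 fits that each left out a sample, FABP5 was kept in 2, HADH, ACOT13 and CPT1C in 1 each, and ACOT7 and GPATCH2 in 0.

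In brain no called gene changed by more than 1.20 with age. FABP7 in cerebellum measured 12.17 and 12.54 at 1 week, 12.00 and 12.36 at 4 weeks, 11.45 and 11.67 at 2 months and 11.60 and 11.41 at 4 months, and fell by 0.73 (adjusted p = 0.0318). In cortex FABP7 differed by -0.65 ± 0.15 (adjusted p = 0.0656) and in hypothalamus by -0.24 ± 0.24 (0.783). Whether the regions differ in this was not tested. CPT2 (-0.63), ELOVL7 (-1.20) and FADS1 (-0.66) also fell in cerebellum, DGAT1 rose by 0.55, and CPT1A by accession fell by 0.88 ± 0.12 (adjusted p = 0.0149). The older cerebella lay outside the range of the younger ones in each of these genes. In cortex DGAT2 rose from between 8.40 and 9.12 to between 9.55 and 10.10 (0.97 ± 0.18; adjusted p = 0.0376). Leaving out 1 sample at a time kept CPT1A in 6 of 8 fits, CPT2 in 0 and the other named genes of cerebellum and cortex in 2. Summed cycling cell markers in cerebellum went from between 9.39 and 9.60 at 1 week to between 7.50 and 7.73 at 4 months, erythroid markers from between 14.18 and 15.13 to between 10.67 and 11.35, and oligodendrocyte markers from between 16.49 and 16.61 to between 15.97 and 16.14. None of these 3 lists had a called gene in the age difference, and their part was not tested.

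Sex was tested across 28 male and female pairs matched for tissue and age. Different tissues may come from the same animal, so the pairs may hold fewer animals than samples, and the fit did not allow for this. No gene of the 64 was called (limma; all genes 0.253%), 7 had an unadjusted p under 0.05, and the smallest adjusted p was 0.195, for PLIN5 (males minus females -0.30 ± 0.09). Sex was not tested within single tissues.

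Testis and ovary had 1 sample per age and no test. GPAT2, a mitochondrial glycerol-3-phosphate acyltransferase known from the male germ line, measured 8.43, 10.68, 11.32, 11.19 and 11.23 in testis from 1 week to 2 years and 9.47, 8.77, 8.74 and 7.34 in ovary from 1 week to 4 months. Every gonad value of GPAT2 exceeded the highest value in the other tissues up to 4 months, 6.79. In testis FABP7 stepped from 1.89, not well above background, to 4.70 between 4 weeks and 2 months, and stood at 3.70 at 2 years. Between 4 weeks and 2 months the sperm protamine PRM1 went from 2.83 to 15.99. Summed germ cell markers were at 17.22 at 2 months and 17.21 at 2 years. The part of the cell makeup in the FABP7 values was not tested. In ovary ACSL4, a synthetase that prefers arachidonic acid and is known from steroid-forming cells, stepped from 7.51 to 10.01 between 2 and 4 months and ACOT7 from 6.56 to 8.93. The steroidogenic markers STAR and CYP11A1 went from 2.30, not well above background, to 9.31 and from 4.19 to 10.43 in the same ovaries. FABP1 was at 6.31 in the 4-week ovary and between 3.46 and 4.21 in the other 3. Summed hepatocyte markers were at 10.67 in the 4-week ovary and between 8.09 and 8.76 in the other 3, and their part in the FABP1 value was not tested. PLIN2 by accession ran from 7.67 to 8.49 in ovary.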

How the data were processed

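The authors deposited 1 scanner output per array (Agilent Feature Extraction 11.5.1.1, per the submitters' processing notes), with the median pixel intensity of each spot, and a value table whose log2 values followed the scanner's corrected signal, feature by feature (r at least 0.991 on the same array); its centring is not stated. The raw median intensity was background corrected with normexp (saddle, offset 0) and quantile normalized over 61289 gene and 308 negative control spots in limma 3.58.1 (R 4.3.3), because the study's methods name robust multi-array analysis. Flagged spots (10 to 590 per array) were dropped, values were log2 transformed, and spots, then probes, were averaged per gene, leaving 23722 genes (14 dropped). Median gene intensity was 27 to 89 per array, and the number of arrays limits the precision. The 8 repeats of the 2-year kidney were averaged (median SD 0.068 over the members). A renal pelvis array was left out. The values of 1 gene are not reported here.

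Of 10818 accession-named genes, 3019 matched a RefSeq symbol. The fits were limma with Benjamini-Hochberg adjustment over all genes, checked on simulated data with 200 changed genes. Members, lists and tests were chosen with earlier results of these data known. Named were a textbook set, the members with the largest called differences per tissue (3 higher, 2 lower) and per age contrast (3 each way), and those with the largest steps in the gonads. Alternatives covered the signal, offset, scaling, a filter on dim genes, probe summary, variance moderation, sex and slide as blocks, 1 fit over all tissues, the 2-year sample and leaving out samples. Slides hold several tissues, and no sequences were used here. Figures were made with matplotlib 3.10.9 in Python 3.11.15.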

Additional observations from a re-analysis of the deposited data

Results flagged for a closer look

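Within 89 groups of 4 or 8 samples behind the named values, 5 held a sample that stood apart from the others by more than the 95% limit for such groups, and chance flags about 1 in 20. The 1-week male kidney was low in ACSM2A (9.76, the next sample at 10.71). The 1-week female cerebellum was low in ACSL6 (6.99, the next at 7.72), and the 2-month female hypothalamus was low in FABP7 (8.99, the next at 9.71). The 4-week male kidney was high in FABP7 among the young kidneys (5.99, the next at 4.65), and its separate probe set by accession gave the same (5.90, the next at 4.79).

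The step from 1 to 4 weeks differed between liver and kidney, by the test of the difference itself, for ACSM4 (-2.25 by symbol and -2.90 by accession) and ACOT7 (1.93). ACSL6 (-1.75) and FABP2 by accession (-1.34) met the same test, but ACSL6 was not well above background in any liver or kidney sample and FABP2 in only 1 liver and no kidney sample.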

How the results depend on the processing

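No value reversed its direction. Of the named genes' values under the alternatives, 1620 kept their call and 336 lost it. The count of genes called per tissue in the tissue difference moved by over 1.5 times only with an offset of 50 (spleen 15, hypothalamus 15) and with a 4-fold limit (kidney 13, spleen 8, bone marrow 11, cerebellum 8, hypothalamus 7, cortex 7). Counts in the age difference moved more. With the scanner-corrected signal at 75th percentile scaling they were 8 in liver (5 higher and 3 lower, against 1 and 2), 4 in spleen, 0 in bone marrow and 1 in cerebellum, and the bone marrow step gave 14 (7 higher and 7 lower, against 3 and 6). That scaling moved the median of all genes from 0.02 to 0.18 in the liver step, from -0.01 to -0.25 in the spleen step and from 0.07 to 0.24 in the bone marrow step. An offset of 50 gave 2 in kidney (1 higher and 1 lower, against 1 and 6), 3 in spleen, 3 in cerebellum, 4 in cortex and 5 in the liver-kidney contrast (3 higher and 2 lower, against 1 and 2), and turned the split of the liver step to 3 higher and 1 lower, against 1 and 3. Median scaling gave 2 in spleen, 0 in bone marrow and 3 in cerebellum, with 2 higher and 1 lower in liver. The deposited table gave 6 in spleen, 0 in bone marrow, 0 in cerebellum and 3 in cortex. Without dim genes the counts were 2 in spleen, 2 in bone marrow and 5 in cortex, and with trended robust variances 5 in cortex. A single fit over all tissues pools the spread and also takes each age as its own group, so that changes between ages leave the spread. It gave 20 in liver, 16 in kidney, 20 in spleen, 18 in bone marrow, 3 in cerebellum and 1 in hypothalamus. With slide as a random block it gave 20, 16, 20, 18, 2 and 1. With the 2-year sample among the older, liver had 7, bone marrow 0 and cortex 2. Without the 1-week samples of the tissue, a setting chosen after seeing the data, bone marrow had 0 and spleen 3. The cause of these shifts was not tested.

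With sex as the replicate block, the age difference gave 0 genes in spleen, 2 in bone marrow and 0 in cortex, and no other count moved by over 1.5 times. Among the values that lost their call there were the age differences of FABP4 in spleen, DGAT2 in cortex and ACSM4 in kidney. The labels number replicates only by order, and deviations of same-sex samples correlated between -0.234 and 0.347, so the numbers pair nothing.

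Leaving out 1 sample at a time gave, in the age difference, 1 to 5 genes in liver, 1 to 10 in kidney, 0 to 5 in spleen, 0 to 7 in bone marrow, 0 to 5 in cerebellum, 0 to 0 in hypothalamus and 0 to 2 in cortex. In bone marrow 7 of 8 such fits gave 0, and the fit without the first 2-month sample gave 7. In spleen the fit without the first 4-week sample gave 5, and in liver that without the second 2-month sample gave 5. In the first step the ranges were 1 to 3 in liver, 2 to 3 in kidney, 13 to 19 in spleen, 3 to 6 in bone marrow and 3 to 3 in the liver-kidney contrast; a lone remaining sample was assumed to vary like the other groups. The tissue difference ranged from 38 to 40 in liver, 28 to 31 in kidney, 25 to 27 in spleen, 21 to 23 in bone marrow, 22 to 24 in cerebellum, 23 to 25 in hypothalamus and 23 to 25 in cortex. Signal near background limits the dim genes, among them ACSL6, ELOVL4, PLIN5 and ACADVL.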
